A study of Mus musculus with 6 samples.

Results

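The 36 genes described here encode subunits of the receptors through which retinal neurons respond to glutamate, GABA and glycine. They were selected by symbol from the deposited gene table, and all 36 were found among its 25124 gene models. They comprise 4 AMPA, 4 kainate, 6 NMDA and 6 metabotropic glutamate receptor genes, 9 GABA-A and 2 GABA rho subunit genes, and 5 glycine receptor genes. Their transcripts were compared between 3 retina libraries labelled Elovl2(C234W), called C234W, and 3 wild-type libraries, called WT. All 6 came from 4-month-old mice of strain C57BL/6J. Elovl2 encodes the elongase that makes long-chain precursors of docosahexaenoic acid, and C234W names an amino acid substitution in it. The labels give neither zygosity nor sex, nor whether each library came from its own animal, and every p-value below reflects only how these libraries varied. 4 of the genes (Gria3, Gabra3, Glra2 and Glra4) lie on the X chromosome. The C234W libraries are those whose columns carry the prefix FS (FS3A, FS3B and FS5A), assigned by elimination, and the WT libraries are WT1A, WT2A and WT2B. The direction of every difference rests on that assignment.

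In the vertebrate retina, photoreceptors and bipolar cells release glutamate, and horizontal and amacrine cells provide inhibition, mostly by GABA and glycine. AMPA and kainate receptors are fast glutamate-gated cation channels of OFF bipolar, horizontal, amacrine and ganglion cells, and NMDA receptors act mainly in the inner retina. Metabotropic receptors signal through G proteins, and the group III members damp transmitter release at many synapses. GABA-A, GABA rho and glycine receptors are pentameric chloride channels, and the rho channels carry the slow GABA current at bipolar cell terminals.

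The libraries held 14184093 to 19298613 counts in genes. Elovl2 itself had 82.0, 90.1 and 116 CPM (counts per 1000000, scaled by TMM, a normalization between libraries) in C234W, against 142, 138 and 136 CPM in WT. Its log2 fold change was -0.53 (SE 0.166, edgeR adjusted p = 0.0991), and a substitution need not alter a transcript level, so these values do not check the labels. Library WT1A stood apart from the other WT libraries, with a sum of 7 pigment epithelium markers of 731 CPM, while that sum was 106 to 157 CPM in the C234W libraries and 173 and 72.8 CPM in WT2A and WT2B. Amacrine, bipolar and ganglion cell markers were present in every library.

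The members on which the results turn include a pair of group III metabotropic receptors that differed in opposite directions, Grm7 and Grm8, the adjacent rho genes Gabrr2 and Gabrr1, and the neighbours Gria2 and Glrb on chromosome 3. Their 250 bases upstream of the transcript start, from RefSeq on GRCm38.p6 (the assembly of mm10), are printed 5′ to 3′ on the gene's strand, so that the sequence next to each start can be read beside its values. Capitals mark a GC box (GGGCGG) or an OTX and CRX core (TAATCC) on either strand. The windows lie at chr6:110645262-110645511 (plus strand), chr6:28135147-28135396 (minus), chr4:33062862-33063111 (plus), chr4:33132306-33132555 (plus), chr3:80802836-80803085 (minus) and chr3:80913661-80913910 (minus).
Grm7: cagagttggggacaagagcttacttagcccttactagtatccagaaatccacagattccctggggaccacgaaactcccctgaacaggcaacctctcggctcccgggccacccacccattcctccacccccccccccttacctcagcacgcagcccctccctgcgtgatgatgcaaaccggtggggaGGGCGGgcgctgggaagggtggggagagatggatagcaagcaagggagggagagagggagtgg
Grm8: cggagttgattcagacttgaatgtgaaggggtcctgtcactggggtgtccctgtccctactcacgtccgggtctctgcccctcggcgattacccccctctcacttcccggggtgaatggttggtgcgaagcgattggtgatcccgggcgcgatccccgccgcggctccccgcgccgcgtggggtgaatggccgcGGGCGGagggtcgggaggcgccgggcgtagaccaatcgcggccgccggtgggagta
Gabrr2: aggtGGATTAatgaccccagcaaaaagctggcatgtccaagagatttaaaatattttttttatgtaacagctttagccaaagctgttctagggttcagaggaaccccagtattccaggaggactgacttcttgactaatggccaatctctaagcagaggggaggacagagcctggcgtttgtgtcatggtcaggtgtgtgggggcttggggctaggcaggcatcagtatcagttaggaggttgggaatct
Gabrr1: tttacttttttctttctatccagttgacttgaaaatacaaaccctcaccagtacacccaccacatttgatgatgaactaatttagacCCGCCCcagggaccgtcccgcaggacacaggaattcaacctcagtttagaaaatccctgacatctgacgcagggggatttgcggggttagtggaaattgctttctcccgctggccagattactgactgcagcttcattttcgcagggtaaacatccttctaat
Gria2: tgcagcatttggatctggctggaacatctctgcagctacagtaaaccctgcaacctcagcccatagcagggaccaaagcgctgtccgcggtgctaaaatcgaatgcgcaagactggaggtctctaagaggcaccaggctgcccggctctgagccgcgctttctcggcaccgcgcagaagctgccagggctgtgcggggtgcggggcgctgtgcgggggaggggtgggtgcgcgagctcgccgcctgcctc
Glrb: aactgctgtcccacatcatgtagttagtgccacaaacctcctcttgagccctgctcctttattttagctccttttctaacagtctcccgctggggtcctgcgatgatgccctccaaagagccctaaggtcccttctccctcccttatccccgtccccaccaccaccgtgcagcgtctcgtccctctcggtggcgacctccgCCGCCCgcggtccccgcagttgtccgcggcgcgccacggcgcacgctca

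A window was matched for 27 of the 36 members, and for 23 it began at the start of the deposited gene model, as it did for the 6 printed. The GC box occurred in 16 of the 27, or 59.3%, against 32.7% of all 32851 windows of the same length. The OTX and CRX core was found in 2 of 27 (Gabra2 and Gabrr2), or 7.41%, against 6.25% of all windows. An E-box (CANNTG) was found in 13 of 27 (48.1%, against 66.2%) and a TATA box (TATAAA) in 3 of 27 (11.1%, against 12.4%). A CRE (TGACGTCA) was found in 0 of the 27, against 1.55% of all windows. Both strands were searched, and no motif searched contains another. Grm7 and Grm8, whose levels differed in opposite directions, each held 1 GC box, and a link between motif and level was not tested. Gabrr2 and Gabrr1 shared neither capitalised motif.

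Of the 36 subunit genes, 0 passed an adjusted p of 0.05 in edgeR's quasi-likelihood test, by which 1.82% of the 14685 genes tested did, 0.293% higher and 1.53% lower in C234W. Limma-voom likewise called 0. At an unadjusted p under 0.05, 12 members were higher and 1 was lower in C234W, against 12.2% and 13.7% of all genes tested. DESeq2 called 4 members, all higher (Gria2, Grik2, Grm7 and Glra1), against 4.71% of genes called higher and 7.24% called lower by it. In 11 members all C234W libraries lay above all WT libraries, against 12.6% of all genes, and in 1, Grm8, all lay below, against 16.4%. The median log2 fold change over the 36 was 0.44, with 28 positive and 8 negative values, beside a median of 0.024 over all genes tested. All 36 passed the filter on low counts, with 7 to 2997 counts per library. In whole retina, fewer cells of a type and less RNA per cell cannot be told apart.

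**Figure D1:**
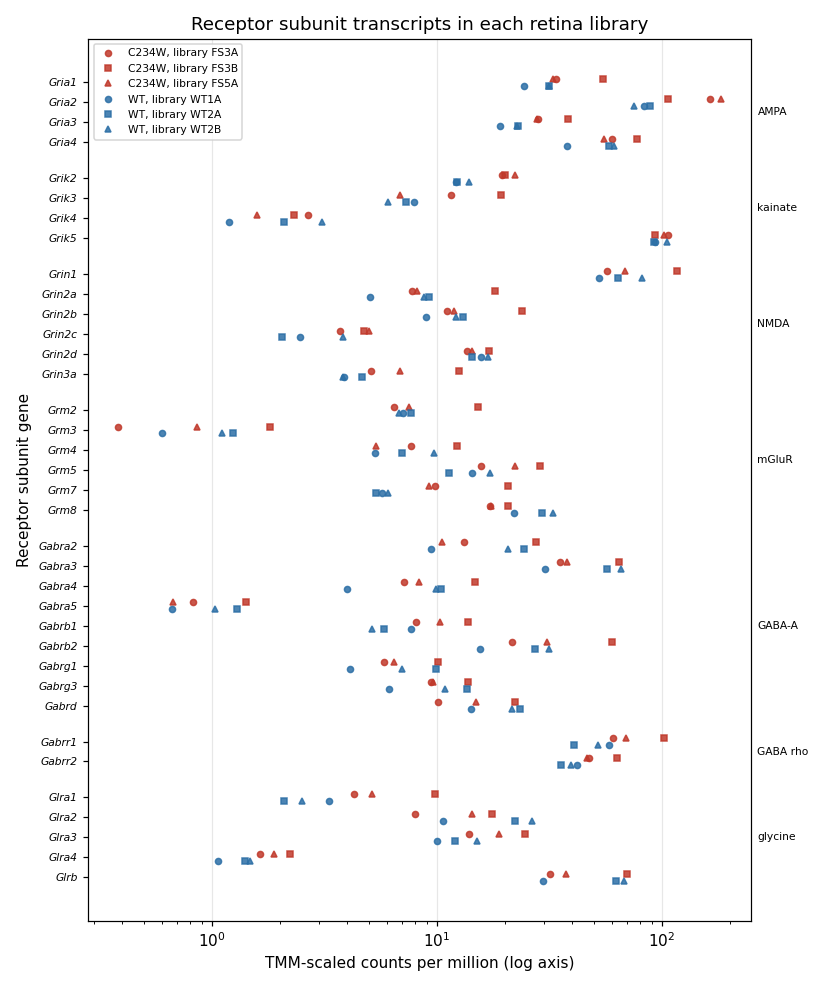
Level of each of the 36 receptor subunit transcripts in each library, in TMM-scaled counts per 1000000 on a log axis, with C234W libraries in red just above WT libraries in blue. Library FS3B was the highest of the 6 in 27 members and WT1A the lowest in 19, and the groups did not overlap in 12 members.

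The members' levels set FS3B and WT1A apart from the other libraries. FS3B was the highest of the 6 libraries in 27 of 36 members, and its share of all genes tested was 17%. WT1A was the lowest in 19 of 36, against 15.0% of all genes. The median deviation of the members from their own mean was 0.65 on the log2 scale in FS3B, beside -0.12 in FS3A and -0.05 in FS5A. It was -0.50 in WT1A, beside -0.09 in WT2A and 0.05 in WT2B. Without FS3B the members' median log2 fold change was 0.069, with 21 positive and 15 negative values, and 4 were higher and 1 lower at an unadjusted p under 0.05, against 12.5% and 12.4% of all genes. Those 4 higher members were Gria2, Grik2, Grm7 and Glra1, and the lower was Grm8. Without WT1A, edgeR called Gria2 and Grik2 higher and Grm8 lower (adjusted p = 0.0396, 0.0416 and 0.0265), in a fit that called 8.93% of all genes higher and 9.55% lower. That fit leaves WT2A and WT2B as the only WT libraries, which share a number in their names and were the most alike pair of the 6 (chi-square of counts 9.97 per degree of freedom, against 30.6 to 111.6 for the other pairs). FS3A and FS3B also share a number, yet differed more (47.65) than FS3A and FS5A (30.57). With same-number libraries summed, 0 members were called, in a fit that called 0 of all 15193 genes tested.

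Marker sums of inner retinal neurons and rods were read beside these libraries. Over all genes tested, edgeR had 12.2% higher and 13.7% lower at an unadjusted p under 0.05, and DESeq2 called 4.71% higher and 7.24% lower. The 10 amacrine markers summed to 941, 1457 and 953 CPM in FS3A, FS3B and FS5A, against 746, 1635 and 1632 CPM in WT1A, WT2A and WT2B. In edgeR 0 of the 10 passed, 1 was higher and 0 lower at an unadjusted p under 0.05, and DESeq2 called 0. WT1A had the lowest amacrine sum of the 6 libraries and FS3B the highest among C234W, below WT2A and WT2B. The 11 bipolar markers summed to 1303, 1432 and 1368 CPM in the same C234W libraries, against 1162, 970 and 994 CPM in the WT libraries, without overlap, and WT1A was the highest WT library. Of these 11, 0 passed in edgeR, 5 were higher and 0 lower at that threshold, and DESeq2 called 4, all higher. All C234W libraries lay above all WT libraries in 5 of the 11 and below in 1, Pcp2. Log2 fold changes were positive in 9 and negative in 2, with a median of 0.34. The 10 ganglion cell markers summed to 1808, 1700 and 1469 CPM in C234W, against 1770, 2315 and 2321 CPM in WT. In edgeR 0 of them passed, 0 were higher and 1 lower at that threshold, and DESeq2 called 0. A list of 9 rod markers summed to 30659, 29693 and 36113 CPM in C234W, against 66772, 40983 and 48204 CPM in WT, without overlap and with WT1A highest. In edgeR 1 of the 9, Pde6g, fell (adjusted p = 0.0491), 0 were higher and 4 lower at an unadjusted p under 0.05, and DESeq2 called 4, all lower. All 9 had negative log2 fold changes, with a median of -0.64. No marker of these 4 lists was at 0. The part of cell composition in the members' values was not tested.

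**Figure D2:**
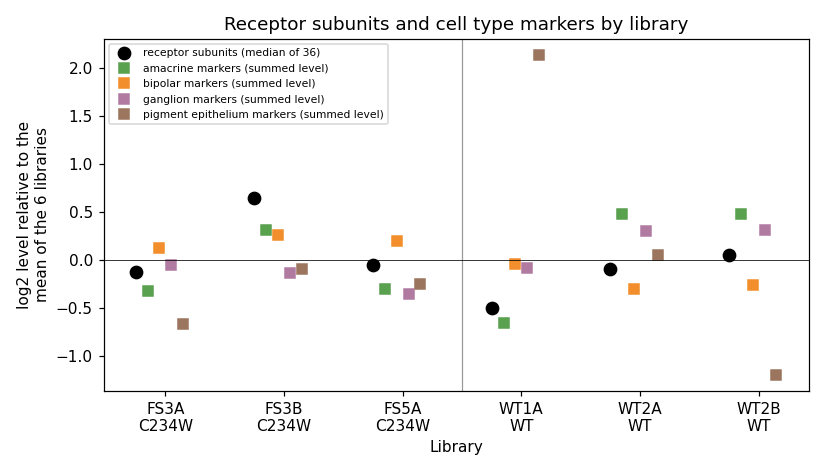
For each library on the horizontal axis, the median log2 deviation of the 36 receptor subunits from their own mean over the 6 libraries (black circles) and the log2 summed level of marker lists relative to its mean (squares). The subunits were highest in FS3B (0.65) and lowest in WT1A (-0.50), and pigment epithelium markers were highest in WT1A.

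Fold changes between genotypes also varied with transcript length. The members' gene models had a median length of 4358 bases, against 3020 over all genes tested, and 15 of the 36 belonged to the 2939 genes with the longest transcripts, of 4983 bases or more. The median log2 fold change of those 2939 genes was 0.28. At an unadjusted p under 0.05, 25.4% of them were higher and 2.99% lower, and in 25.5% all C234W libraries lay above all WT libraries. The 15 members among them had a median of 0.60, with 8 higher and 0 lower at that threshold and 6 with C234W above WT throughout, and the other 21 members had a median of 0.086, with 4 higher and 1 lower. With the length trend of each library removed, the median over the 36 was 0.12, beside -0.048 over all genes, and 5 members were higher and 1 lower at an unadjusted p under 0.05, against 7.26% and 13.6% of all genes. By this fit, edgeR called 0 members at an adjusted p of 0.05, and 1 of all 14685 genes tested. Among the shorter members, the log2 fold changes of Glra1 (2378 bases) and Gabrr1 (2239 bases) were 1.28 and 0.64 after removal, against 1.29 and 0.62 before.

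**Figure D3:**
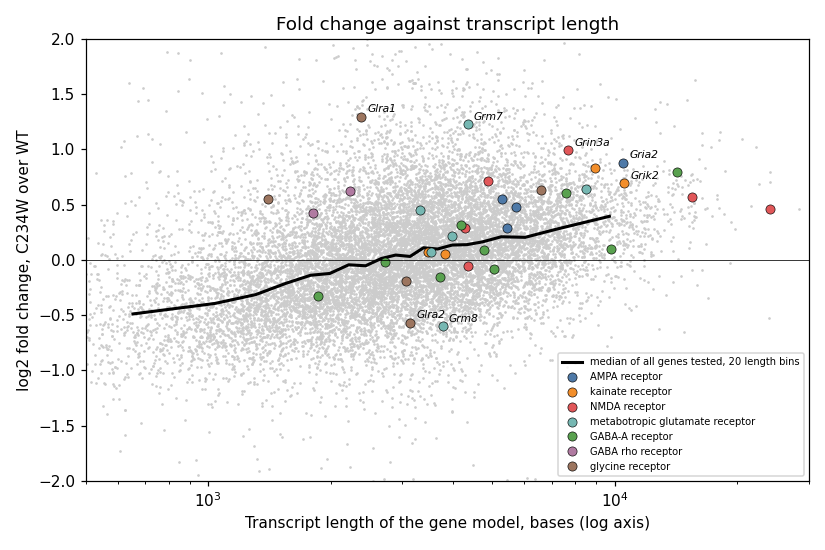
Log2 fold change (C234W over WT) against the transcript length of the gene model in bases on a log axis, for all genes tested (grey), their median in 20 length bins (line) and the 36 receptor subunits coloured by class. The median of all genes was 0.28 among the 2939 genes with the longest transcripts. Grm7 and Glra1 lay above the median line at their own length, and Grm8 and Glra2 lay below it.

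Among AMPA receptor subunits, which assemble as tetramers, all 4 had positive log2 fold changes (median 0.51, and 0.26 with the length trend removed), and 0 passed in edgeR. Gria2 encodes GluA2, the subunit that after RNA editing keeps AMPA channels nearly impermeable to calcium. It lies on chromosome 3 from 80681450 to 80802835 on the minus strand. Gria2 had 164, 107 and 183 CPM in FS3A, FS3B and FS5A, against 83.4, 88.2 and 75.0 CPM in WT1A, WT2A and WT2B. Every C234W library was above every WT library, and FS3B, the highest for most other members, was here the lowest of the 3 C234W libraries. Gria2 averaged 151 ± 39.4 CPM in C234W and 82.2 ± 6.65 CPM in WT (SD, n = 3 each), a log2 fold change of 0.88 (SE 0.207, edgeR adjusted p = 0.0595, DESeq2 adjusted p = 0.00422). It was 1.08 without FS3B and 0.50 with the length trend removed. The kept gene model is 10509 bases long and carries a non-coding RefSeq identifier (NR_152148), as does that of Gria3 (NR_104053), so their counts were taken over the exons of those models.

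Gria3, encoding GluA3, had 28.1, 38.3 and 27.9 CPM in C234W libraries FS3A, FS3B and FS5A, against 19.0, 22.9 and 22.7 CPM in the WT libraries. The groups did not overlap, and the log2 fold change was 0.55 (SE 0.193, edgeR adjusted p = 0.127). Gria1, encoding GluA1, also had separate groups, with 32.9 to 54.8 CPM in C234W and 24.3 to 31.5 CPM in WT, whereas Gria4, encoding GluA4, overlapped. Per kilobase of transcript, Gria4 and Gria2 were the most abundant AMPA subunits, at 11.8 and 14.4 CPM per kilobase in C234W and 9.66 and 7.82 in WT. Gria2 led in FS3A, FS5A and WT1A and Gria4 in FS3B, WT2A and WT2B, so the order of the pair differed within both genotypes. The share of Gria2 in the family's CPM per kilobase was 41.1, 24.7 and 45.0% in the C234W libraries, against 34.9, 29.0 and 25.3% in the WT libraries, with overlap.

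In the kainate class, Grik5 held most of the CPM per kilobase of the 4 members and differed little. It encodes GluK5, a high-affinity subunit that needs a partner to form channels. It had 107, 93.2 and 103 CPM in C234W, against 93.4, 92.5 and 105 CPM in WT, a log2 fold change of 0.057 with a 95% interval of -0.26 to 0.38. Grik2 encodes GluK2, a principal subunit that forms channels on its own, and lies on chromosome 10 from 49093681 to 49788766 on the minus strand. Grik2 had 19.5, 20.2 and 22.3 CPM in C234W, against 12.2, 12.3 and 13.8 CPM in WT. The spread within each genotype was small beside the gap between them, and FS3B was not the highest. The log2 fold change was 0.69 (SE 0.179, edgeR adjusted p = 0.0672, DESeq2 adjusted p = 0.0111). It was 0.71 without FS3B, but 0.31 with the length trend removed, for a transcript of 10560 bases.

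The kainate shares cover the 4 members only, without Grik1, a kainate subunit gene outside the 36. Grik1 had 67.4 ± 16.4 CPM in C234W and 55.9 ± 15.8 CPM in WT (SD, n = 3 each). Of the members' CPM per kilobase, Grik2 made up 5.78, 6.55 and 6.99% in C234W, against 4.31, 4.35 and 4.3% in WT. Grik5 made up 83.8 to 89.0% against 90.4 to 91.1%. Both shares were without overlap, and shares inside a library do not depend on how libraries are scaled, though a length effect alters them. Shares of a family sum to a fixed total, so rises and falls within it are not separate results. No share was tested, in this family or another. Without division by length the differences were 4.43 percentage points for Grik2 and -7.47 for Grik5, against 2.12 and -3.84 with it. Grik3, encoding GluK3, had 11.6, 19.2 and 6.83 CPM in C234W, against 7.90, 7.27 and 6.03 CPM in WT (log2 fold change 0.83, SE 0.357, edgeR adjusted p = 0.183). Its difference rested largely on FS3B, without which the value was 0.38. Grik4, encoding GluK4, had 1.58 to 2.68 CPM in C234W and 1.20 to 3.09 CPM in WT.

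NMDA receptors combine the obligatory glycine-binding GluN1 subunit with GluN2 or GluN3 subunits. Grin1, encoding GluN1 and the most abundant of the class per kilobase, had 56.9, 117 and 68.5 CPM in C234W, against 52.7, 63.9 and 81.8 CPM in WT. Only FS3B lay outside the WT range, and the log2 fold change was 0.29 with all libraries and -0.075 without FS3B. Grin3a encodes GluN3A, a glycine-binding subunit that lowers calcium permeability, and had 5.09, 12.5 and 6.83 CPM in C234W, against 3.85, 4.63 and 3.83 CPM in WT. Its groups did not overlap, with a log2 fold change of 0.99 (SE 0.359, edgeR adjusted p = 0.134) and 0.53 without FS3B. Grin2c, encoding GluN2C, had 3.72, 4.74 and 5.0 CPM in C234W, against 2.46, 2.04 and 3.83 CPM in WT, a slight overlap (log2 fold change 0.71, SE 0.319, edgeR adjusted p = 0.197).

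Among the 4 GluN2 subunits, which bind glutamate and set the kinetics of the channel, Grin2d (GluN2D) was the most abundant per kilobase, with 13.6 to 17 CPM in C234W and 14.3 to 16.9 CPM in WT. Grin2d made up 64.3, 55.4 and 61.7% of GluN2 CPM per kilobase in C234W, against 75.0, 67.8 and 67.6% in WT, and Grin2c made up 15.8, 13.9 and 19.2% against 10.5, 8.67 and 13.7%. Neither share overlapped between genotypes, but the level of Grin2d itself did, with a log2 fold change of -0.059. Grin2a and Grin2b, whose models are 15505 and 24106 bases long, had log2 fold changes of 0.57 and 0.46. These were 0.12 and -0.066 after removal of the length trend.

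A pair of metabotropic receptors differed in opposite directions. Grm7 and Grm8 encode the group III receptors mGluR7 and mGluR8, both presynaptic and coupled to inhibitory G proteins, and both lie on chromosome 6 of mm10, Grm7 from 110645512 to 111567230 on the plus strand and Grm8 from 27275121 to 28135146 on the minus strand. Grm7 had 9.85, 20.7 and 9.27 CPM in C234W libraries FS3A, FS3B and FS5A, against 5.71, 5.38 and 6.03 CPM in WT. Grm8 had 17.2, 20.7 and 17.3 CPM in the same C234W libraries, against 22.0, 29.3 and 32.7 CPM in WT. Neither gene's groups overlapped, and Grm8 was the single member lower in all C234W libraries. The log2 fold change was 1.23 for Grm7 (SE 0.338, edgeR adjusted p = 0.0773, DESeq2 adjusted p = 0.00937) and -0.60 for Grm8 (SE 0.201, edgeR adjusted p = 0.114, DESeq2 adjusted p = 0.0671).

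The log2 ratio of Grm7 to Grm8 counts was -0.81, 0 and -0.90 in FS3A, FS3B and FS5A, against -1.94, -2.44 and -2.44 in WT1A, WT2A and WT2B. This ratio averaged -0.57 ± 0.496 in C234W and -2.28 ± 0.286 in WT (SD, n = 3 each), a difference of 1.71 without overlap. It was chosen after its values were seen and was given no test. Shares were taken among Grm4, Grm7 and Grm8, without Grm6, a group III gene outside the 36. Grm6 had 64.3 ± 6.04 CPM in C234W and 50.8 ± 8.95 CPM in WT (SD, n = 3 each). The share of Grm7 in CPM per kilobase was 25.9, 35.7 and 26.4% in C234W, against 15.5, 11.5 and 11.1% in WT. The share of Grm8 was 52.1, 41.1 and 56.8% in C234W, against 68.7, 72.1 and 69.3% in WT. The transcripts of Grm7 and Grm8 are of similar length (4346 and 3776 bases), and after removal of the length trend their log2 fold changes were 1.03 and -0.75. Without FS3B they were 0.75 and -0.69.

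Grm8 was the most abundant of the 6 metabotropic members per kilobase in every library. Grm5, the group I receptor that signals through phospholipase C, had 15.7 to 28.7 CPM in C234W and 11.3 to 17.2 CPM in WT (log2 fold change 0.64, edgeR adjusted p = 0.17). Grm2 and Grm3, the group II receptors, had log2 fold changes of 0.45 and 0.074. Grm4, the remaining group III gene among the 6 members, had 0.21. Without FS3B these 3 values were -0.038, -0.70 and -0.16. Grm3 was low in every library, at 0.383 to 1.80 CPM in C234W and 0.598 to 1.24 CPM in WT.

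**Figure D4:**
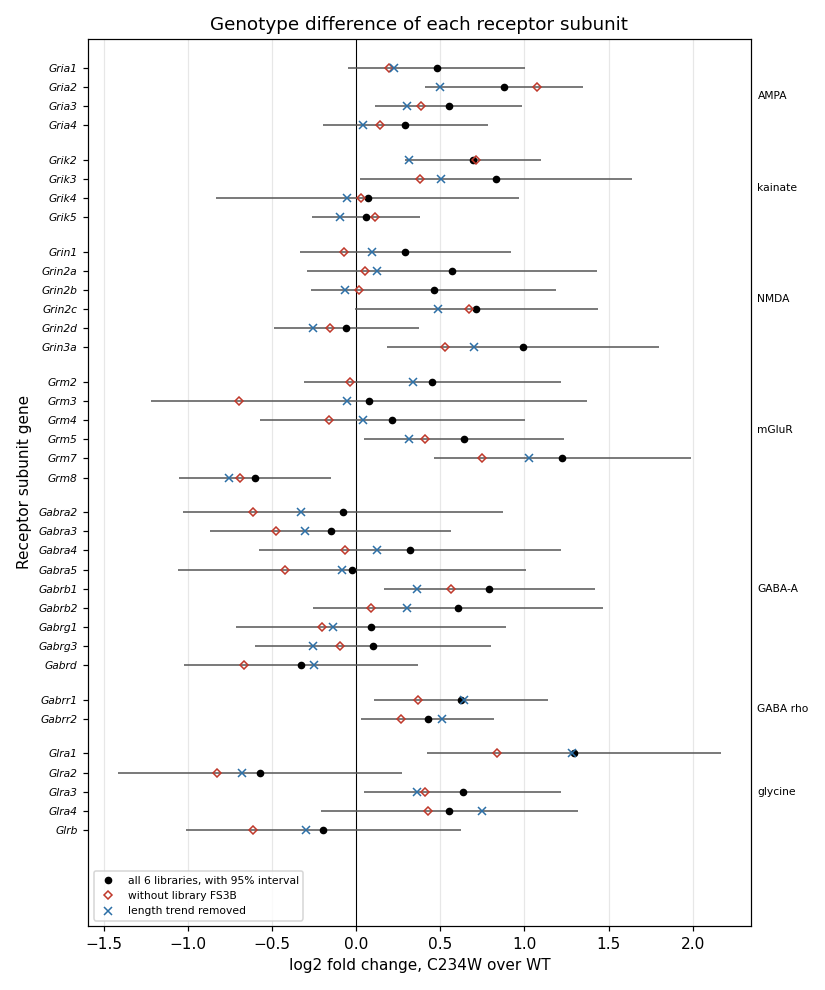
Log2 fold change (C234W over WT) of each receptor subunit from edgeR with its 95% interval (black), and the same value without library FS3B (red diamonds) and with the transcript length trend removed (blue crosses). Grm7 and Glra1 had the highest values (1.23 and 1.29), and without FS3B the 9 GABA-A subunits had a median of -0.20.

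The 9 GABA-A subunit genes showed no common direction, with 5 positive and 4 negative log2 fold changes and a median of 0.086. Without FS3B the median was -0.20, and without WT1A it was -0.18. Gabra3, encoding the alpha3 subunit and the most abundant of the 9 per kilobase, had 35.3, 64.3 and 37.9 CPM in C234W libraries FS3A, FS3B and FS5A, against 30.3, 57.2 and 65.5 CPM in WT1A, WT2A and WT2B. FS3B lay with WT2A and WT2B, and WT1A with FS3A and FS5A, the same split of libraries as in the amacrine marker sums. Gabra2, Gabrg1, Gabrg3 and Gabrd, which encode the alpha2, gamma1, gamma3 and delta subunits, had WT1A or FS3A as their lowest library. The delta subunit, known from receptors outside synapses, had 10.1 to 22.2 CPM in C234W and 14.2 to 23.5 CPM in WT.

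Gabrb1, encoding the beta1 subunit, was the GABA-A gene with the smallest p and the only one of the 9 with separate groups, at 8.05, 13.8 and 10.3 CPM in C234W, against 7.64, 5.81 and 5.15 CPM in WT. Its log2 fold change was 0.79 (SE 0.278, edgeR adjusted p = 0.127), and 0.36 with the length trend removed, for a transcript of 14261 bases. Gabrb2, encoding beta2, had 21.6, 60.1 and 31.0 CPM in C234W, against 15.5, 27.3 and 31.5 CPM in WT, a log2 fold change of 0.60 (SE 0.382, edgeR adjusted p = 0.342) and of 0.087 without FS3B. Gabrb1 belongs to a cluster on chromosome 5 with Gabrg1, Gabra2 and Gabra4, and is the single member of it on the plus strand, 41623 bases from Gabra4. The log2 fold changes of the other 3 were 0.086, -0.08 and 0.32. Their 95% intervals were -0.72 to 0.89, -1.03 to 0.87 and -0.58 to 1.22, each overlapping that of Gabrb1 (0.16 to 1.42). Gabra4, encoding alpha4, had 7.17 to 14.7 CPM in C234W and 3.98 to 10.4 CPM in WT. Its share in the CPM per kilobase of the alpha members was 12.1 to 13.6% in C234W and 8.48 to 10.7% in WT, without overlap. Gabra5, encoding alpha5, was low throughout, at 0.671 to 1.42 CPM in C234W and 0.664 to 1.29 CPM in WT.

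Both rho genes were higher in all C234W libraries. Gabrr1 and Gabrr2 lie side by side on chromosome 4, 36690 bases apart and both on the plus strand. Gabrr1 had 60.4, 103 and 69.3 CPM in C234W, against 58.2, 40.8 and 52.1 CPM in WT, a log2 fold change of 0.62 (SE 0.229, edgeR adjusted p = 0.139). Gabrr2 had 47.5, 63.2 and 46.3 CPM in C234W, against 42.1, 35.7 and 39.3 CPM in WT, a log2 fold change of 0.42 (SE 0.176, edgeR adjusted p = 0.172). Here WT1A was the highest WT library, unlike in most other members. Without FS3B the values were 0.37 and 0.27. Per kilobase, Gabrr1 and Gabrr2 stood at 34.6 and 28.9 CPM in C234W and 22.5 and 21.6 CPM in WT, where Grik5 was at 26.4 CPM in C234W and 25.4 CPM in WT. These 3 were the most abundant of the 36 by the mean of either genotype. The share of Gabrr1 in the pair, 50.7 to 56.8% in C234W and 48.0 to 52.8% in WT, overlapped. The bipolar marker sums given above had the same order of genotypes, though not every bipolar marker did. The part of these markers in the rho values was not tested.

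Glycine receptors combine alpha subunits with the beta subunit Glrb, which anchors them to the scaffold gephyrin. Glrb, the most abundant of the 5 per kilobase, had 31.9, 70.0 and 37.7 CPM in C234W, against 29.5, 62.3 and 68.2 CPM in WT, with the same split of libraries as Gabra3. Its log2 fold change was -0.20 (95% interval -1.01 to 0.62). Glrb lies 40763 bases from Gria2 on the same strand. The log2 fold change of Gria2 was 0.88, and its 95% interval (0.41 to 1.35) overlapped that of Glrb. The log2 ratio of Gria2 to Glrb counts was 2.36, 0.61 and 2.28 in FS3A, FS3B and FS5A. It was 1.5, 0.50 and 0.14 in WT1A, WT2A and WT2B, so the groups overlapped, and this ratio was given no test. Glra1, encoding the alpha1 subunit, lies on chromosome 11 from 55514239 to 55608198 on the minus strand. Glra1 had 4.27, 9.77 and 5.12 CPM in C234W, against 3.32, 2.10 and 2.5 CPM in WT, without overlap. The log2 fold change was 1.29 (SE 0.386, edgeR adjusted p = 0.0902, DESeq2 adjusted p = 0.0213), the highest value among the 36, and 0.84 without FS3B.

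Glra3, encoding alpha3, had 13.9, 24.5 and 18.8 CPM in C234W, against 9.96, 12.1 and 15.0 CPM in WT, a log2 fold change of 0.63 (SE 0.26, edgeR adjusted p = 0.169). Glra2, encoding alpha2, had 7.99, 17.6 and 14.3 CPM in C234W, against 10.6, 22.3 and 26.5 CPM in WT, a log2 fold change of -0.57 (SE 0.373, edgeR adjusted p = 0.355). Glra4, encoding alpha4, was higher in all C234W libraries at 1.64 to 2.23 CPM, against 1.06 to 1.47 CPM in WT. Within the alpha subunits, the share of Glra2 was 33.4, 37.2 and 41.8% of CPM per kilobase in C234W, against 48.0, 65.7 and 65.8% in WT. The share of Glra1 was 23.5, 27.4 and 19.7% in C234W, against 19.8, 8.16 and 8.21% in WT. The Glra2 share did not overlap between genotypes, while the Glra1 share of WT1A lay just inside the C234W range. The share of Glra3 was 24.8 to 27.7% in C234W and 16.9 to 21.4% in WT, without overlap.

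**Figure D5:**
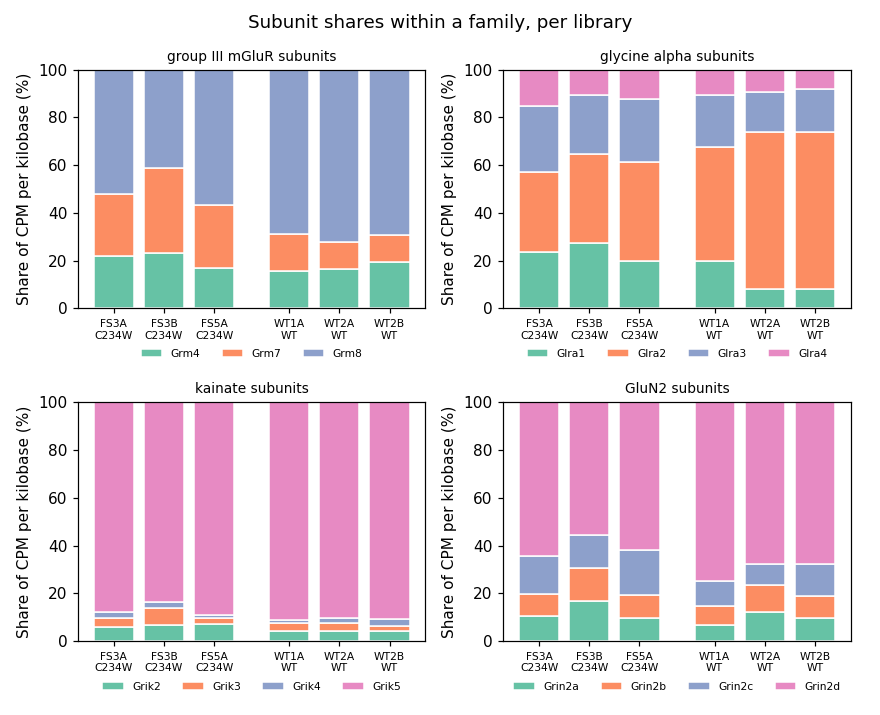
Share of each subunit in the CPM per kilobase of the members of its family, in percent, for each C234W library (left bars) and WT library (right bars). Grm8 made up 41.1 to 56.8% of the 3 group III members shown in C234W and 68.7 to 72.1% in WT, and Glra2 33.4 to 41.8% of the glycine alpha subunits in C234W and 48.0 to 65.8% in WT.

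The same test was read for genes that work with these receptors. Beside them, 12.2% of all genes tested were higher and 13.7% lower in C234W at an unadjusted p under 0.05. Of 16 further subunit genes of these transmitter systems, 12 had enough counts to test. In edgeR 0 passed, 1 was higher and 0 lower at an unadjusted p under 0.05, DESeq2 called 0, and the median log2 fold change was 0.31. The smallest p belonged to Gabrr3, the remaining rho subunit, at 8.49 ± 1.81 CPM in C234W and 4.74 ± 1.47 CPM in WT (SD, n = 3 each, edgeR adjusted p = 0.126), and the next to Grid1, a delta-type glutamate receptor (adjusted p = 0.236). Of 31 auxiliary subunits and scaffolds of glutamate receptors, 0 passed in edgeR, 3 were higher and 2 lower at that threshold, and the median was 0.081. Cacng7, an auxiliary subunit of AMPA receptors, had 134 ± 5.80 CPM in C234W and 195 ± 3.40 CPM in WT (SD, n = 3 each), a log2 fold change of -0.54 (edgeR adjusted p = 0.0632), and Homer3, a scaffold of group I metabotropic receptors, had -0.57 (adjusted p = 0.0756).

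Of 19 partners of inhibitory synapses, 0 passed in edgeR, 3 were higher and 2 lower at an unadjusted p under 0.05, and the median was 0.081. Slitrk3, an adhesion protein of inhibitory synapses, had 14.7 ± 3.80 CPM in C234W and 7.74 ± 1.87 CPM in WT (SD, n = 3 each), a log2 fold change of 0.92 (edgeR adjusted p = 0.0877). Gabarap, which binds GABA-A receptors in trafficking, had -0.40 (adjusted p = 0.138). Over these 31 and 19 genes DESeq2 called 3, with Slitrk3 higher and Cacng7 and Homer3 lower (adjusted p = 0.0217, 0.00677 and 0.0228). Of all genes tested it called 4.71% higher and 7.24% lower.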

How the data were processed

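Poly-A RNA of whole mouse retina was sequenced in 6 libraries, prepared with a strand-specific TruSeq protocol per the labels. Alignment was to mm10 by STAR (2.7.8a in the submitters' processing notes), and HOMER quantified reads over exons of a single isoform at each locus, per the design text of the series. The authors deposited estimated counts in steps of 0.5 without normalization, per the file headers. By those headers, 65.8 to 74.4% of the tags of each library were counted in genes. A level per kilobase depends on which isoform was kept. The prefix FS is not explained in the labels, and the headers name 3 WT and 3 C234W inputs. Every pair of libraries differed in counts by well over sampling noise (chi-square of at least 9.97 per degree of freedom), so none was treated as a duplicate.

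Estimated counts were rounded, filtered with filterByExpr (14685 genes kept), scaled by TMM and tested with the quasi-likelihood test of edgeR (4.0.16, R 4.3.3, robust, no covariate), with Benjamini-Hochberg adjustment over all genes tested. Log2 fold changes are C234W over WT. Alternatives were other scalings and filters, unrounded values, DESeq2 (1.42.0), limma-voom (limma 3.58.1), removal of a loess trend in length (span 0.3) from each library, leaving out each library, summing libraries whose names share a number and, added after seeing the data, the earlier dispersion method of edgeR. The fits were tested on simulated data, in which edgeR recovered 33% of 2-fold changes, DESeq2 50% and limma-voom 28%. There, 13 of 130 edgeR calls, 34 of 170 DESeq2 calls and 11 of 121 limma-voom calls were false. 1 rod marker is not reported here. The members and lists were chosen with earlier results of these data known. Values in every library are given for the 2 members of each class with the smallest p and its most abundant member per kilobase, and each partner list names the 2 genes with the smallest p. Other genes with values in every library were chosen after their values were seen.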

Additional observations from a re-analysis of the deposited data

How the results depend on the processing

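The count of members past an adjusted p of 0.05 was 0 under every scaling, filter, rounding and dispersion setting, with limma-voom, with the length trend removed and with same-number libraries summed. It was 4 with DESeq2, and between 0 and 3 with 1 library left out (3 without WT1A). The count over all genes was 267, and 1754 with DESeq2, 1 with total-count scaling, 1 with the length trend removed, and 0 with same-number libraries summed. With 1 library left out it was between 0 and 2771: 2771 without WT1A, 7 without FS5A, 1 without FS3B and 0 without FS3A, WT2A or WT2B. The members' median log2 fold change was 0.44, between 0.069 (without FS3B) and 0.56 with 1 library left out, and between 0.12 (length trend removed) and 0.63 (total-count scaling, which puts the median of all genes at 0.21) under the others.

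Of the 36 members, 21 had the same sign in every alternative and 15 did not. With total-count scaling the sign turned for Grin2d (0.13), Gabra2 (0.087), Gabra3 (0.015) and Gabra5 (0.16). With the length trend removed it turned for Grik4 (-0.053), Grik5 (-0.095), Grin2b (-0.066), Grm3 (-0.054), Gabrg1 (-0.14) and Gabrg3 (-0.25), and with limma-voom for Grm3 (-0.14). With 1 library left out, log2 fold changes ran from -0.16 to 0.0097 for Grin2d, -0.61 to 0.20 for Gabra2, -0.48 to 0.069 for Gabra3, -0.43 to 0.24 for Gabra5, -0.70 to 0.46 for Grm3, -0.19 to 0.40 for Grik4, -0.20 to 0.44 for Gabrg1, -0.15 to 0.38 for Gabrg3, -0.62 to 0.020 for Glrb, -0.075 to 0.49 for Grin1, -0.038 to 0.68 for Grm2, -0.16 to 0.46 for Grm4 and -0.067 to 0.56 for Gabra4. The cause was not tested. With 3 libraries per genotype, leaving 1 out cannot move a share difference by more than the root mean square of the 2 genotype SDs. That spread is thus no check on the difference in share, which was run for 11 subunits with 1 library left out. It ran from 3.19 (without FS5A) to 13.4 (without FS3B) percentage points for Gria2, 1.84 to 2.45 for Grik2, -4.90 to -2.31 (without FS3B) for Grik5, 3.87 to 6.68 for Grin2c, -11.6 to -7.13 for Grin2d, 13.4 to 18.4 for Grm7, -23.4 to -15.6 for Grm8, 1.8 (without WT2A) to 4.91 (without FS3A) for Gabrr1, 9.54 to 15.4 for Glra1, -28.3 to -19.4 for Glra2 and 6.61 to 8.86 for Glra3. With shares of CPM not divided by length it was 4.43 for Grik2, -7.47 for Grik5 and 12.5 for Glra3, beyond that spread, and 7.28 for Glra1 and 2.76 for Grin2c. No paired analysis was possible because the columns carry no replicate number of the labels. Under the stricter filter Gabra5 was not tested. Gabra5, Grm3 and Glra4 rest on the fewest counts.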

Other observations

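Genes on the releasing side of glutamate synapses and of the ON bipolar cascade were read in the same fit. That fit had 12.2% of all genes higher and 13.7% lower at an unadjusted p under 0.05, and DESeq2 called 4.71% higher and 7.24% lower. Of 10 genes of glutamate release, uptake and turnover, 0 passed in edgeR, with 1 higher and 2 lower at an unadjusted p under 0.05, and DESeq2 called 1, lower. Slc17a7, the vesicular glutamate transporter of photoreceptors and bipolar cells, had 2070, 2083 and 2554 CPM in C234W, against 4873, 3410 and 4063 CPM in WT, a log2 fold change of -0.88 (edgeR adjusted p = 0.0589, DESeq2 adjusted p = 0.00083). Every C234W library lay below every WT library. Slc1a2, a glutamate uptake carrier, had 386 ± 24.3 CPM in C234W and 282 ± 48.3 CPM in WT (SD, n = 3 each, edgeR adjusted p = 0.143).

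ON bipolar cells sense glutamate through mGluR6, which gates the cation channel Trpm1. Grm6, which encodes mGluR6, had 64.3 ± 6.04 CPM in C234W and 50.8 ± 8.95 CPM in WT, with overlap (SD, n = 3 each, edgeR adjusted p = 0.247). Of 10 cascade genes, 0 passed in edgeR, with 3 higher and 0 lower at an unadjusted p under 0.05, and DESeq2 called 2, both higher. The median log2 fold change of the 10 was 0.12, and Gng13 was lower in all C234W libraries (edgeR adjusted p = 0.4735). Trpm1 had 259, 198 and 276 CPM in C234W, against 159, 90.5 and 74.3 CPM in WT, a log2 fold change of 1.18 (edgeR adjusted p = 0.0595, DESeq2 adjusted p = 0.00176). Nyx, which encodes nyctalopin and holds Trpm1 at the synapse, had 18.8 ± 6.07 CPM in C234W and 9.09 ± 2.88 CPM in WT (SD, n = 3 each, edgeR adjusted p = 0.0825, DESeq2 adjusted p = 0.0142). Trpm1 is also among the bipolar markers above. In Trpm1 and Nyx WT1A was the highest WT library, as for the rho receptor genes.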
